A study of Mus musculus with 30 samples.

Results

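The uterus of untreated mice that lacked estrogen receptor alpha was compared with that of untreated wild-type mice, before puberty. The members are 6 of the 30 arrays of the series, chosen by their sample titles: 3 arrays of knockout (KO) uteri and 3 of wild-type (WT) uteri. All mice were females 21 days old. The KO mice carry the genotype label Ex3aERKO and the WT mice the label WT. The labels name no strain, do not say whether a littermate served as control, and name no Cre or promoter. Both groups had received 100 ul of saline into the abdomen once, and the tissue was taken 24 h later. The other 24 arrays hold, for each genotype, 3 arrays of uteri 2 h and 24 h after 250 ng of 17β-estradiol (E2), and 3 arrays each of uteri given 50 ug of insulin-like growth factor 1 (IGF1) once, taken at 2 h, or 3 times, taken at 24 h. Whole uteri were profiled, so fewer cells of a type and less RNA per cell cannot be told apart in any result here.

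Estrogen receptor alpha is a nuclear receptor that binds estradiol and then acts on genes through estrogen response elements, a palindrome of facing arms, or through other DNA-bound factors. In the adult uterus it carries the growth and secretory response to estradiol and the induction of the progesterone receptor, and receptor in the stroma drives much of the growth of the epithelium. At 21 days the ovaries of a mouse make little estradiol, so a comparison of saline-treated uteri asks what the receptor does in tissue that has not yet been through puberty.

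Levels are log2 signals as deposited, and differences are KO minus WT on that log2 scale with a standard error (SE), so that 1 unit is 2-fold. A gene was called where the adjusted p of limma, a linear model fitted across all genes and all 30 arrays, was below 0.05. A level within background is one at or below the 95th percentile of 1083 olfactory receptor genes, which lay at 6.09 in KO and 6.10 in WT on average. Where the dimmer group lay there, the fold is a lower bound against that floor and is written "at least". Nothing in the labels says that the 3 arrays of a group came from separate animals, so the spread behind each p-value may be technical.

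WT replicate 1 stood apart from the other arrays. Xist, the non-coding RNA of the inactive X, was at 10.16 on it and at 17.01 to 18.12 on the other 29 arrays, and its antisense gene Tsix was at 7.24 against 8.41 to 8.89. The Y-linked genes Kdm5d, Eif2s3y and Uty were within background on every array. Its mean correlation with its own group was 0.974, the lowest of the 30 arrays (range 0.974 to 0.994), and its array weight was 0.166. Among the KO arrays, replicate 3 had a mean level of 9.14 over 7 adipocyte markers against 7.05 to 7.68 in WT, and 9.91 over 7 mesothelial markers against 8.63 to 8.95 in WT, while KO replicates 1 and 2 were at 7.49 and 7.14 and at 8.26 and 8.72. The part of these arrays in single results was not tested beyond the fits without them.

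In all, 879 of 30142 genes were called, 2.92%, with 486 higher (1.61%) and 393 lower (1.3%) in KO. Of these, 398 differed at least 2-fold (1.32% of all genes), 220 higher and 178 lower. In 392 of the 398 the 3 KO and 3 WT arrays did not overlap, which held for 14.3% of all genes. The 398 were picked on these same arrays, so little overlap is built into that count and does not add to the calls. The median over all genes was -0.01. The shares of 1.61% higher and 1.3% lower and this median are the values over all genes for the list counts below. Without WT replicate 1, 841 genes were called (2.79%), 629 of the 879 remained called and all 879 kept their direction. The number of calls depended on the other arrays in the fit: 211 genes were called when the 6 arrays were fitted alone, 197 of them among the 879. With all 30 arrays less KO replicate 2 the count was 470, and less WT replicate 3 it was 567.

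**Figure D1:**
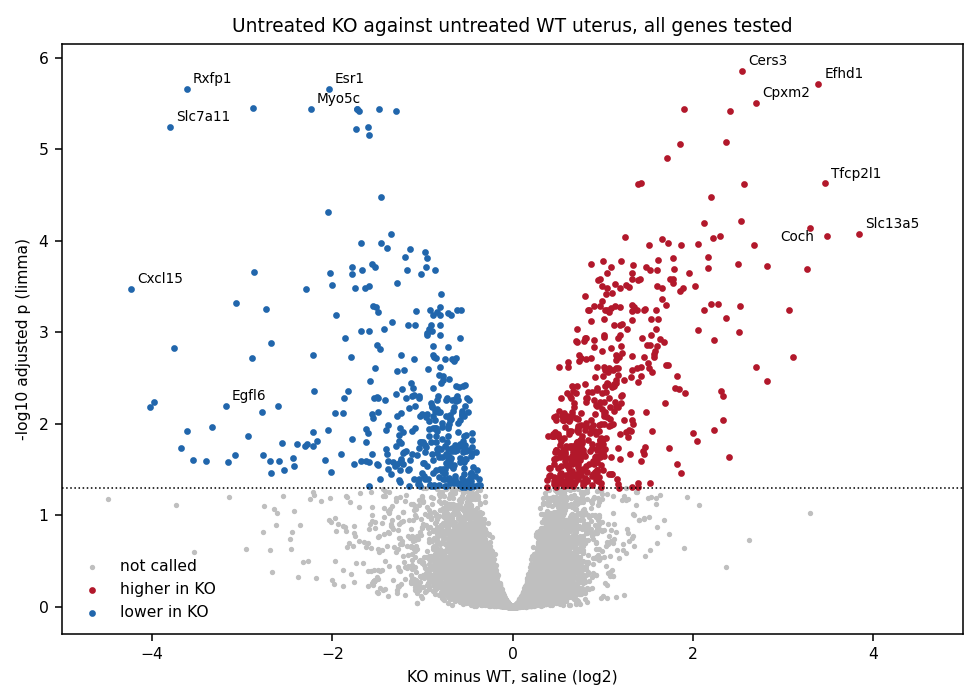
Difference between KO and WT uteri after saline (x axis, log2) against -log10 of the limma adjusted p (y axis) for all 30142 genes. Red points are the 486 genes called higher in KO, blue points the 393 called lower, grey points were not called, and the dotted line marks an adjusted p of 0.05. Cxcl15, Slc7a11 and Rxfp1 lie far to the left and Slc13a5, Coch and Tfcp2l1 far to the right.

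The targeted gene came first. Esr1, which encodes estrogen receptor alpha, was at 10.41, 10.29 and 10.08 on the KO arrays, against 11.73, 12.43 and 12.73 on the WT arrays. It fell by 2.04 ± 0.19 on the log2 scale in KO (4.10-fold, adjusted p = 2.17e-06), with a difference of -2.32 without WT replicate 1. The KO level stayed well above background, and whether the probe set lies outside the deleted exon 3 is not given in the sources used here, so this is a limited check of the genotype. Across all 10 groups the 15 KO arrays lay between 9.38 and 10.41 and the 15 WT arrays between 11.44 and 12.73, with no overlap. Esr2, the gene of estrogen receptor beta, was within background in both genotypes (4.67 in KO, 4.73 in WT).

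Genes known for their response to estradiol in the uterus were taken next. Of 27 such genes 3 were called, against 2.92% of all genes: 1 was higher, the growth factor gene Tgfa (0.56 ± 0.12), and 2 were lower, with a list median of -0.01. Greb1, an estrogen-induced cofactor of the receptor, was at 5.80, 5.53 and 5.57 in KO, against 6.44, 6.45 and 6.44 in WT. All 3 KO values were below all 3 WT values, but both groups were close to background, and the difference of -0.81 ± 0.14 corresponds to at least 1.28-fold (adjusted p = 0.000834). Igf1, the growth factor gene of the uterine stroma, was at 9.18, 9.17 and 9.79 in KO, against 9.9999, 10.53 and 10.69 in WT. Its groups did not overlap, and it fell by 1.03 ± 0.28 at adjusted p = 0.0478, a call that held in 2 of 6 fits that each left out 1 array.

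Pgr, the progesterone receptor gene, was at 13.88, 14.06 and 13.45 in KO, against 13.21, 14.26 and 13.83 in WT, with overlapping groups and a difference of 0.03 ± 0.34 (adjusted p = 0.991). The lactotransferrin gene Ltf (0.15 ± 1.40) and the mucin gene Muc1 (1.01 ± 0.42) were not called either. Among 20 steroid receptors and coregulators Esr1 alone was called. The IGF1 receptor gene Igf1r stood at 12.23 in KO and 11.55 in WT, a difference of 0.68 ± 0.33 that was not called (adjusted p = 0.414).

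Of 27 mitosis genes none was called (median -0.18), with Mki67 at 7.01 in KO and 7.80 in WT. Of these 27, 23 had a negative difference, and the list median was -0.42 and -0.73 at 2 h and 24 h of IGF1. Of 29 genes of DNA replication none was called (median -0.04, 18 negative), where 2.92% of all genes were called. Of 15 genes of cholesterol synthesis the phosphomevalonate kinase gene Pmvk was higher (0.76 ± 0.20), and of 19 cell cycle inhibitors and quiescence genes Cdkn1c, a CDK inhibitor, was lower (-0.65 ± 0.18). Neither of these calls held without WT replicate 1 (adjusted p = 0.0542 for Pmvk and 0.198 for Cdkn1c).

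The largest rises included transport and secreted factors. Slc13a5, a sodium-coupled citrate transporter, was at 9.73, 10.42 and 9.43 in KO, against 6.08, 6.02 and 5.96 in WT. WT values lay within background and KO values well above it, a difference of 3.84 ± 0.51 (at least 13.01-fold, adjusted p = 8.39e-05). Coch, the secreted protein cochlin, was at 11.67, 12.53 and 12.71 in KO, against 8.38, 8.80 and 9.26 in WT (3.49 ± 0.46, 11.3-fold). Stc1, a glycoprotein hormone that also inhibits the IGF-binding protein protease PAPP-A, was at 13.64, 14.08 and 13.87 in KO, against 9.78, 10.996 and 11.02 in WT. Stc1 thus differed by 3.26 (9.61-fold, adjusted p = 0.000202). Tgfbi, a matrix protein induced by TGF-beta, reached 17.31, 18.28 and 17.75 in KO, against 13.78, 15.72 and 15.73 in WT (2.70 ± 0.51); without WT replicate 1 the difference was 2.05.

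Transcription factor genes were also among them. Tfcp2l1, a grainyhead-like factor of epithelia, was at 11.65, 12.93 and 12.13 in KO, against 8.68, 9.03 and 8.61 in WT (3.46 ± 0.42, adjusted p = 2.35e-05). Plag1, a zinc finger factor, was at 9.98, 9.64 and 9.12 in KO, against 6.76, 6.97 and 6.99 in WT (2.68 ± 0.37). Both separated the genotypes with more than 2 log2 units between the nearest KO and WT arrays. Pax2, a factor of the embryonic reproductive duct, was at 9.81, 10.40 and 9.43 in KO, against 7.67, 8.42 and 7.88 in WT (1.89 ± 0.29), and its relative Pax8 rose by 1.01 ± 0.22 (adjusted p = 0.0682 without WT replicate 1). In the list of 31 Hedgehog, Hox and patterning genes these 3 (Tfcp2l1, Pax2 and Pax8) were higher, and the homeobox gene Msx2 (-2.01 ± 0.53) and the zinc finger gene Osr2 (-1.35 ± 0.36) were lower, with a median of -0.10. Msx2 was not called without WT replicate 1 (adjusted p = 0.109).

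An enzyme and a receptor of the prostaglandin D2 pathway were both higher in KO. Hpgds, the hematopoietic prostaglandin D synthase, was at 12.96, 13.46 and 11.93 in KO, against 9.77, 9.12 and 9.58 in WT (3.30 ± 0.43, 9.81-fold, adjusted p = 7.24e-05). Ptgdr, a prostaglandin D2 receptor, was at 10.12, 7.92 and 8.18 in KO, against 6.75, 5.20 and 5.80 in WT, where 2 of 3 arrays were below background (at least 5.84-fold, adjusted p = 0.00337). The arrays of both genes did not overlap, as the rule for the largest rises required. Of 23 prostaglandin and eicosanoid genes, a list without Ptgdr, only Hpgds was called, and the median was 0.01. Among the 25 hormone and peptide receptors, the prostaglandin E2 receptor gene Ptger2 rose by 1.62 ± 0.23 and Lifr, the receptor of leukemia inhibitory factor, by 1.95 ± 0.29. Ptger4, another receptor of prostaglandin E2, fell by 0.82 ± 0.22 and was not called without WT replicate 1 (adjusted p = 0.0609).

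The remaining genes of the 20 largest rises had several roles. Cxcl17, a mucosal chemoattractant, was at 12.51, 11.35 and 12.29 in KO, against 8.35, 9.01 and 9.57 in WT (3.07 ± 0.50). Efhd1, a mitochondrial calcium-binding protein, was at 10.11, 10.81 and 10.78 in KO, against 7.42, 7.25 and 6.84 in WT (3.39 ± 0.31). Cyp1b1, which hydroxylates estradiol among other substrates, was at 8.48, 8.51 and 8.06 in KO, against 5.97, 5.36 and 6.22 in WT, at least 4.496-fold. For each of these genes every KO array lay above every WT array, as the rule for the largest rises required. Cers3, which makes very long chain ceramides (2.55 ± 0.22), Fads2b, of the fatty acid desaturase family (2.52 ± 0.40), and Scel, a precursor of the cornified envelope (2.37 ± 0.39), rose as well. So did Atp6v0d2, a subunit of the vacuolar proton pump (2.52 ± 0.43), Ddah1, which breaks down an inhibitor of nitric oxide synthase (2.54 ± 0.33), Sema3e, a guidance ligand (2.57 ± 0.31), Cpxm2, of the carboxypeptidase family (2.71 ± 0.27), and Pllp, the membrane protein plasmolipin (2.41 ± 0.26). All 20 were called in each of 6 fits that left out 1 array. With the 6 saline arrays fitted alone 18 of the 20 were called, and Ptgdr (adjusted p = 0.123) and Tgfbi (adjusted p = 0.091) were not.

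Tnnt2, the cardiac form of troponin T, was at 11.64, 12.63 and 13.57 in KO, against 9.49, 9.88 and 9.12 in WT (3.12 ± 0.57, 8.67-fold, adjusted p = 0.00184). Of 23 muscle and cardiac contractile genes 4 were higher and none lower (median 0.15), against 1.61% higher and 1.3% lower of all genes. The others were the skeletal troponin genes Tnnt1 (1.11 ± 0.21) and Tnnc2 (1.09 ± 0.27) and the cardiac troponin C gene Tnnc1 (0.68 ± 0.18, at least 1.21-fold). Of 9 skeletal muscle markers none was called higher, 6 had a positive difference (median 0.14) and 4 were above background. Their mean level was 5.71 to 5.92 in KO and 5.71 to 5.96 in WT; Ttn, called lower, was itself at background in both genotypes. Myometrial smooth muscle markers had a median of -0.46, with none of 12 called.

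**Figure D2:**
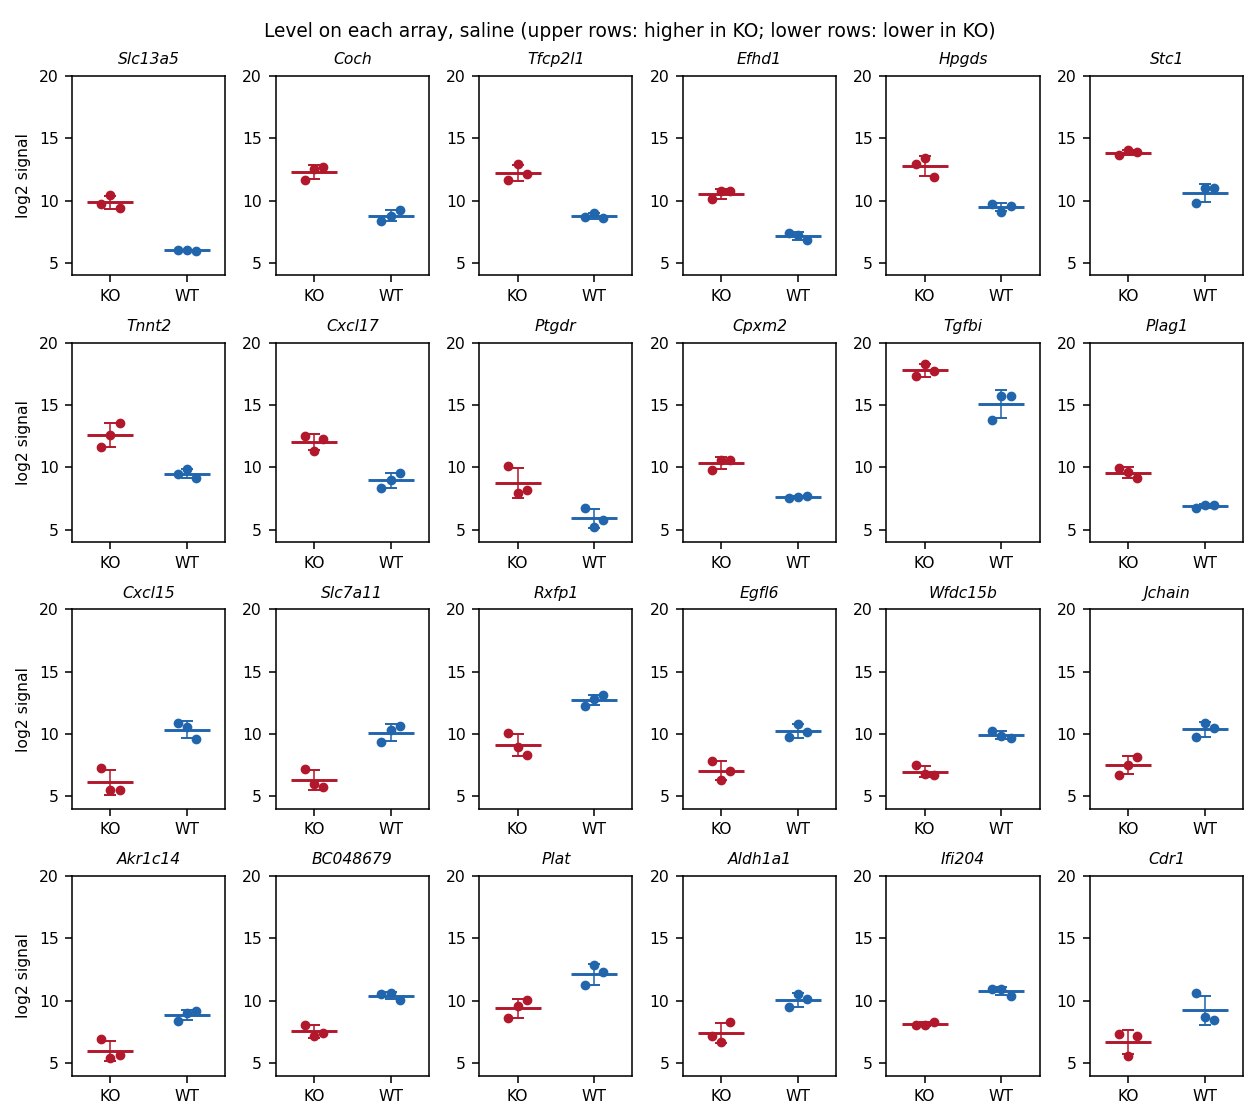
Log2 signal on each of the 3 KO (red, left) and 3 WT (blue, right) arrays after saline, with the mean and the SD, for the 12 largest rises (upper rows) and the 12 largest falls (lower rows). Genes were picked among those whose 3 KO and 3 WT arrays did not overlap, so every panel shows separate points. Slc13a5, for example, lies at 9.43 to 10.42 in KO and 5.96 to 6.08 in WT.

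Cxcl15, a chemokine gene made by the uterine glands, was among the falls. It was at 7.27, 5.54 and 5.54 in KO, against 10.86, 10.61 and 9.59 in WT (-4.23 ± 0.66, adjusted p = 0.000338). In 2 of 3 KO arrays it lay within background, so the size of the difference is uncertain and no fold is given. Slc7a11, the cystine importer that feeds glutathione synthesis, was at 7.22, 6.01 and 5.74 in KO, against 9.39, 10.32 and 10.67 in WT (-3.80 ± 0.41, adjusted p = 5.64e-06). Its KO replicate 3 lay below the floor of that array (6.05) and KO replicate 2 next to its floor (5.98). The size of this difference is thus uncertain too, and no fold is given. Rxfp1, the receptor of relaxin, was at 10.07, 8.94 and 8.33 in KO, against 12.26, 12.82 and 13.11 in WT (-3.62 ± 0.35, 12.3-fold, adjusted p = 2.17e-06). For both genes KO replicate 1 was the highest KO array and WT replicate 1 the lowest WT array, and without WT replicate 1 the differences were -4.17 and -3.85.

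Steroid and retinoid genes were called in both directions. Akr1c14, a 3-alpha-hydroxysteroid dehydrogenase, was at 6.90, 5.44 and 5.64 in KO, against 8.40, 9.02 and 9.19 in WT (at least 5.90-fold, adjusted p = 3.56e-06). Of 24 genes of steroid and sterol metabolism it was the only one lower, and Cyp1b1 the only one higher (median 0.04). Aldh1a1, which makes retinoic acid from retinaldehyde, was at 7.19, 6.71 and 8.27 in KO, against 9.498, 10.57 and 10.14 in WT (-2.68 ± 0.47). Dhrs3, which turns retinaldehyde back to retinol, differed by -1.69 ± 0.42 and the retinoid-responsive chemerin gene Rarres2 by -1.50 ± 0.38. Other retinoid genes were higher, namely Cyp26a1 (1.52 ± 0.22) and Cyp26c1 (1.09 ± 0.18, at least 1.30-fold), which degrade retinoic acid, and Stra6, a retinol uptake receptor (0.86 ± 0.21). Of 25 retinoid genes 3 were thus higher and 3 lower, with a median of -0.07; the call of Dhrs3 did not hold without WT replicate 1 (adjusted p = 0.0751). In the redox list of 28 genes, Slc7a11 and the glutathione transferase gene Gstm5 (-1.14 ± 0.28) were lower and none was higher. Without WT replicate 1 Slc7a11 alone of this list was called.

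Genes of secreted and matrix proteins were among the falls. Plat, tissue plasminogen activator, was at 8.59, 9.57 and 10.03 in KO, against 11.24, 12.87 and 12.28 in WT (-2.73 ± 0.44). Egfl6, a secreted matrix protein with EGF repeats, was at 7.83, 6.34 and 7.02 in KO, against 9.73, 10.81 and 10.20 in WT (-3.18 ± 0.67). Thbs1, thrombospondin 1, was at 8.63, 8.33 and 9.18 in KO, against 10.61, 10.95 and 11.20 in WT (-2.21 ± 0.44). None of these groups overlapped, as the rule for the largest falls required. Over all genes 1.3% were called lower and 1.61% higher, with a median of -0.01. Of 43 collagens and structural matrix genes 7 were lower and 2 higher (median -0.29, and 33 of 43 had a negative difference). The others lower were the laminin gene Lamb1 (-1.78 ± 0.26), Thbs2 (-1.59 ± 0.24), the tenascin gene Tnc (-1.53 ± 0.29, at least 2.48-fold), Col6a3 (-1.38 ± 0.31) and Col1a2 (-0.997 ± 0.23). The 2 higher ones, Col4a5 (0.74 ± 0.14) and Col4a6 (0.64 ± 0.14), encode collagen chains of basement membranes.

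Of 32 matrix proteases and inhibitors 6 were lower and none higher (median -0.30), against 1.3% lower and 1.61% higher of all genes. Mmp2, a gelatinase, was at 9.11, 10.58 and 10.55 in KO, against 11.30, 12.04 and 12.60 in WT (-1.90 ± 0.47), and Mmp14, its membrane-bound activator, differed by -1.83 ± 0.37. Mmp11 (-1.56 ± 0.38), the secreted serpin gene Serpinf1 (-1.12 ± 0.25) and the collagen cross-linking enzyme gene Lox (-0.88 ± 0.23) were the remaining members. The counts of 7 and 6 lower were the same without WT replicate 1. Aspn, asporin, a small matrix proteoglycan, fell by 2.06 ± 0.46 (adjusted p = 0.0115). Beside these, 13 markers of uterine stroma had 1 member lower (Col6a3), 11 of 13 with a negative difference and a median of -0.49; the mean level over the list was 10.73 to 11.45 on the KO arrays and 11.37 to 12.01 on the WT arrays. The part of the stromal share in the matrix results was not tested.

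**Figure D3:**
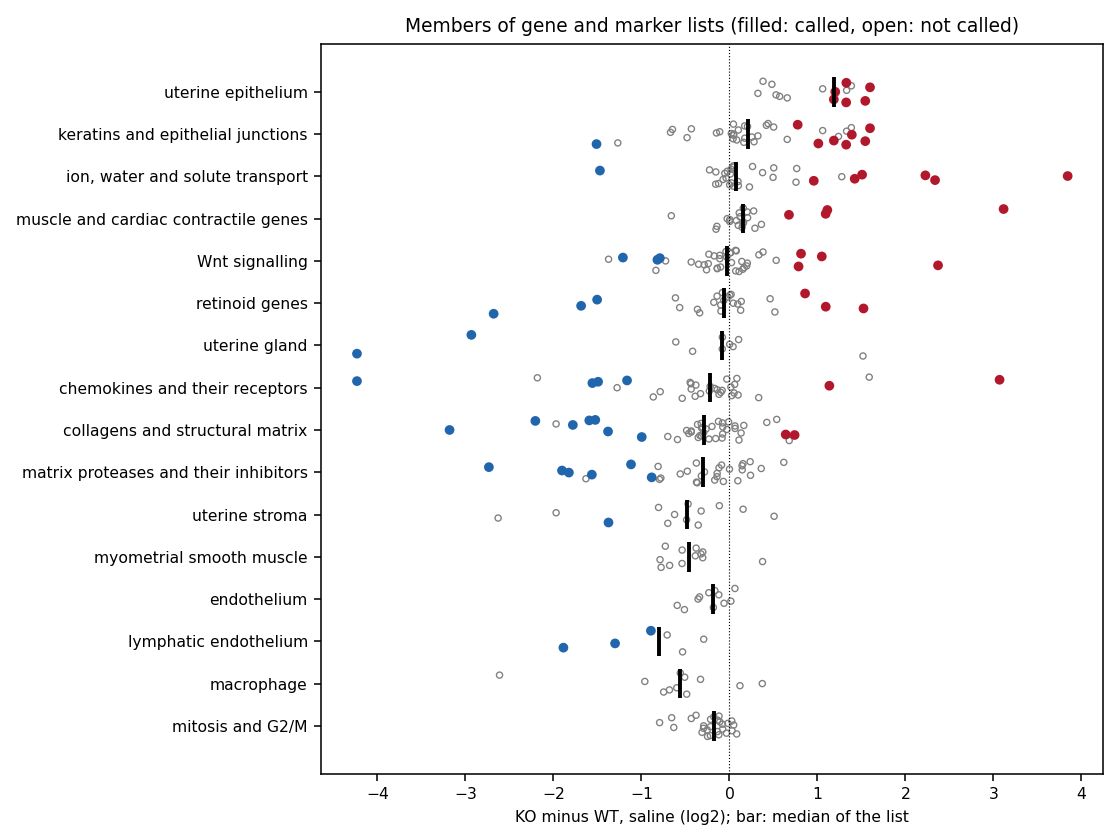
Difference between KO and WT uteri after saline (x axis, log2) for each measured member of 16 gene and marker lists (y axis). Filled points were called (red higher, blue lower in KO), open points were not called, and black bars are list medians. Uterine epithelium markers have a median of 1.19, uterine stroma markers -0.49 and mitosis genes -0.18.

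Epithelial genes ran the other way. All 15 measured epithelium markers had a positive difference, 6 of them called, with a median of 1.19 (4 called and 0.93 without WT replicate 1). Over all genes 1.61% were called higher, with a median of -0.01. Krt7, a simple epithelial keratin, was at 8.95, 9.13 and 9.09 in KO, against 7.75, 7.38 and 7.27 in WT (1.60 ± 0.28, adjusted p = 0.00139). The tight junction genes Cldn3 (1.54 ± 0.35) and Cldn4 (1.19 ± 0.30), the protease inhibitor gene Spint1 (1.33 ± 0.24), the E-cadherin gene Cdh1 (1.33 ± 0.29) and the epithelial splicing factor gene Esrp1 (1.20 ± 0.21) were called as well. Cldn4 and Cdh1 lost their calls without WT replicate 1 (adjusted p = 0.0617 and 0.0662). Krt8 (1.39 ± 0.39), Krt18 (1.33 ± 0.47) and Epcam (0.32 ± 0.21), which also define the epithelium, were not called. The mean level over the 15 markers was 9.78 to 10.05 in KO and 8.76 to 9.14 in WT, with no overlap.

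Of all genes 1.61% were higher and 1.3% lower. Of 37 keratins and junction genes, a list that shares members with the markers, 7 were higher and 1 lower (median 0.20). Beyond those named, the tight junction genes Cgn (1.01 ± 0.17) and Ocln (0.78 ± 0.19) and the hemidesmosome integrin gene Itgb4 (1.39 ± 0.27) rose, and Cdh16, a cadherin of kidney and reproductive duct epithelium, fell by 1.51 ± 0.31. Of 32 genes of ion, water and solute transport 6 were higher and 1 lower (median 0.07), against the same shares of all genes. Slc1a1, a glutamate transporter, was at 10.55, 11.35 and 10.74 in KO, against 8.58, 8.79 and 8.59 in WT (2.23 ± 0.30). Fxyd4, a regulator of the sodium pump, was at 13.21, 13.44 and 13.13 in KO, against 10.29, 11.47 and 11.01 in WT (2.34 ± 0.51, adjusted p = 0.056 without WT replicate 1). Slc1a5, a glutamine transporter, was higher by 1.51 ± 0.28, the sodium channel gene Scnn1a by 1.42 ± 0.27 and Fxyd3 by 0.96 ± 0.21, while the iron exporter gene Slc40a1 fell by 1.47 ± 0.27. The epithelial marker level was higher in KO beside all of these, and its part in them was not tested.

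Known gland products were among the falls. Of 10 gland markers 2 were lower and none higher (median -0.08): Cxcl15, given above, and Wfdc15b, a secreted protein with a whey acidic protein domain, at 7.48, 6.80 and 6.71 in KO, against 10.27, 9.87 and 9.65 in WT (-2.93 ± 0.67, adjusted p = 0.0539 without WT replicate 1). Foxa2, the factor that defines gland epithelium, was at or near background in both genotypes (5.72 in KO, 6.14 in WT), and the gland protease gene Prss28 was within background (4.69 in KO, 4.65 in WT). Only 5 of the 10 gland markers were above background. Among 29 antimicrobial and secreted products, Wfdc2 rose by 1.53 ± 0.26, and Wfdc15b and Jchain were lower. Gkn3, a gastrokine, was at 5.33, 5.54 and 6.01 in KO, against 7.84, 7.78 and 7.42 in WT, at least 3.02-fold (adjusted p = 4.78e-05). Myo5c, an unconventional myosin of secretory epithelia, fell by 2.24 ± 0.23 (adjusted p = 3.61e-06), and BC048679 fell by 2.87 ± 0.42.

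Signalling lists held members of both directions. Lgr5, a receptor of R-spondins that amplifies Wnt signals, was at 11.19, 10.87 and 9.97 in KO, against 7.83, 8.59 and 8.49 in WT (2.37 ± 0.27, adjusted p = 8.26e-06). Of 39 Wnt genes 4 were higher and 3 lower (median -0.03). The ligand genes Wnt11 (1.05 ± 0.16, at least 1.61-fold) and Wnt5a (0.81 ± 0.15) and the transcription factor gene Lef1 (0.79 ± 0.22, adjusted p = 0.185 without WT replicate 1) rose. The secreted Wnt inhibitor genes Wif1 (-1.21 ± 0.23, at least 1.73-fold) and Sfrp2 (-0.82 ± 0.22) were lower, as was Sp5, which lay within background in both genotypes. In the TGF-beta and BMP list of 33 genes the ligand gene Bmp5 was higher (1.52 ± 0.21) and none was lower. In the IGF list of 18 genes Stc1 rose, and Igf1 and the secreted protease gene Htra1 (-0.64 ± 0.17) were lower, with a median of -0.16.

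Some antibody genes were lower in KO. Jchain, the joining chain of secreted antibodies, was at 6.75, 7.53 and 8.20 in KO, against 9.74, 10.90 and 10.51 in WT (-2.89 ± 0.53, adjusted p = 0.0019). The B cell receptor gene Cd79a was within background (5.79 in KO, 5.69 in WT). Antibody segments, a family picked after its values were seen, ran the same way: all 25 measured kappa variable segments of family 4 were lower in sign, 12 of them called, with a median of -2.43. Their mean level was 5.62, 5.79 and 6.71 on the KO arrays and 7.24, 8.82 and 9.02 on the WT arrays. Of 61 heavy chain segments of family 1, 60 were lower in sign and 9 called (median -1.22), or 21 called without WT replicate 1. Most of the segments called in both families lost the call in at least 1 of 6 fits that left out an array. Of 61 other kappa segments 1 was called lower (median -0.57) and of 52 other heavy chain segments none (median -0.34), and of 8 B and plasma cell markers Jchain alone was called (median -0.05). Segments of a family share sequence and may share probes, so they are not independent.

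Chemokine genes beyond Cxcl15 also differed. Of 33 chemokines and receptors 4 were lower and 2 higher (median -0.22). Cxcl12, a chemokine of stromal cells, was at 9.89, 10.46 and 11.08 in KO, against 11.52, 12.11 and 12.46 in WT (-1.56 ± 0.33). Cxcl14 (-1.49 ± 0.32) and Cxcl16 (-1.16 ± 0.20) were lower too, and Cx3cl1, a membrane-bound chemokine, was higher by 1.14 ± 0.23. The genes of the Ifi200 family of interferon-inducible DNA sensors were also examined after their values were seen. Ifi204 was at 8.05, 8.07 and 8.33 in KO, against 10.97, 10.92 and 10.38 in WT (-2.61 ± 0.54, adjusted p = 0.00631). Ifi207 (-2.22 ± 0.53), Ifi211 (-2.17 ± 0.51), Ifi203-ps (-1.62 ± 0.38) and Mndal (-1.63 ± 0.37) were called lower as well, 5 of 9 measured, and all 9 were negative.

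Without WT replicate 1, 2 of the 9 Ifi200 genes were called, and Ifi207 and Ifi211 were at adjusted p = 0.088 and 0.0521. These genes are close relatives and may share probes, and the strain of each genotype is not in the labels. The family median was -0.42 and -0.75 at 2 h and 24 h of IGF1, with 0 and 2 of the 9 called lower. At 2 h of E2 the differences were -0.395 (Ifi204), -0.305 (Ifi207), -0.241 (Ifi211), 0.054 (Ifi203-ps) and 0.178 (Mndal), none of them called. At 24 h of E2 Ifi204 (-2.34) and Ifi211 (-1.89) were called lower, and Ifi207, Ifi203-ps and Mndal were not called. None of 23 interferon response genes was called (median -0.39, 20 negative). Nor was any of 11 macrophage markers (median -0.56, 9 negative, list mean 7.11 to 7.80 in KO and 8.00 to 8.18 in WT). The macrophage and epithelial lysozyme gene Lyz2 was at 13.27 in KO and 15.88 in WT (-2.61 ± 0.81, adjusted p = 0.0948). B2m, the light chain of class I antigen-presenting molecules, fell by 1.11 ± 0.22, the only call among 17 antigen presentation genes, of which 15 were negative. Of 6 lymphatic endothelium markers 3 were lower, Lyve1 (-1.89 ± 0.40), Mmrn1 (-1.30 ± 0.26) and Reln (-0.89 ± 0.19), with all 6 negative, and none of 11 markers of endothelium was called. Of 20 complement genes the regulator gene Cd55 was higher (1.13 ± 0.18). The part of immune and lymphatic cell number in these values was not tested.

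Other members of the largest falls were Clec2d, a lectin-like ligand of natural killer cell receptors, and Cdr1. Clec2d was at 12.48, 13.48 and 13.99 in KO, against 14.14, 16.24 and 15.83 in WT (-2.08 ± 0.52), and its call held in 2 of 6 fits that left out 1 array. Cdr1, whose probe set may not tell the gene from its antisense RNA, was at 7.36, 5.56 and 7.17 in KO, against 10.60, 8.70 and 8.48 in WT (-2.56 ± 0.60), with WT replicate 1 the highest array and an adjusted p of 0.119 without it. Of the 20 largest falls, 16 remained called without WT replicate 1 and 13 were called in all 6 fits. With the 6 saline arrays fitted alone 16 of the 20 were called. Markers of ovary (11, list mean 5.11 to 5.30 in KO and 5.15 to 5.21 in WT), oviduct, bladder and vaginal epithelium gave no call.

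The genes beside Esr1 on its chromosome were examined too. Of 44 measured genes in the neighbourhood of Esr1 in RefSeq gene order, 19 before and 25 after, 2 were called (4.55%), a share near the 2.92% of all genes. Syne1, the next gene, a nuclear envelope spectrin, was at 7.73, 8.22 and 8.61 in KO, against 8.60, 9.36 and 9.15 in WT (-0.85 ± 0.20), with overlapping arrays; its call held in 2 of 6 fits that left out 1 array and not on centred arrays (adjusted p = 0.0527). Tab2, an adaptor of TGF-beta activated kinase at place 25 after Esr1, was higher by 0.52 ± 0.10.

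The promoters of the called genes were searched for the estrogen response element, because the receptor binds it directly. The motif searched was GGTCANNNTGACC, its own reverse complement, in the 300 bases around each start (250 before and 50 after; RefSeq, build GRCm38.p6). None of 344 genes called higher and 258 called lower with a promoter in the table held it without mismatch, against 11 of 17970 genes tested (0.061%). With at most 1 mismatch it was in 7 higher (2.03%) and 2 lower (0.78%), against 172 of all genes (0.96%). Of the 20 largest rises 16 had a promoter to search, as had 16 of the 20 largest falls, and none held it. These are descriptions of a short window and not sites. The 5 of these 9 genes that differed at least 2-fold are shown, each higher in KO, with both arms of the palindrome in capitals and written 5′ to 3′ along the gene's strand.
Lifr (chr15:7140327-7140379, + strand): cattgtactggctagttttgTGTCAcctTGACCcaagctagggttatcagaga
Ttll10 (chr4:156050938-156050990, - strand): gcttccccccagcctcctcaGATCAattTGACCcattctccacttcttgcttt
Fgf9 (chr14:58072662-58072714, + strand): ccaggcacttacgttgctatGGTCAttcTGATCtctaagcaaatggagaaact
Tacc2 (chr7:130577416-130577468, + strand): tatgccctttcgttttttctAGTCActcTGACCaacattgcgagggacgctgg
Amd2 (chr10:35712010-35712062, - strand): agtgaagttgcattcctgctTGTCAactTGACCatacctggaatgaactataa
In Lifr, Ttll10, Tacc2 and Amd2 the mismatch lies in the first arm, and in Fgf9 in the second. Lifr was higher by 1.95 ± 0.29, Ttll10, of the tubulin ligase-like family, by 1.33 ± 0.22, the growth factor gene Fgf9 by 1.33 ± 0.20, Tacc2, a coiled-coil protein of the spindle, by 1.26 ± 0.19 and Amd2, of the S-adenosylmethionine decarboxylase family, by 1.20 ± 0.25.

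The same genotype difference was measured on other arrays after IGF1, which share none with the saline comparison. At 24 h of IGF1, 862 genes were called between KO and WT (1.39% of all genes higher and 1.47% lower), and 336 were called in the same direction in both, 38.2% of the saline calls and 39.0% of the IGF1 calls. These were 165 of the 486 higher and 171 of the 393 lower genes, and none was called in the opposite direction. In sign alone 445 of the 486 and 374 of the 393 matched the saline comparison, with median differences of 0.53 and -0.65. At 2 h of IGF1, 589 genes were called (1.03% higher, 0.922% lower) and 269 were shared, 30.6% of the saline calls and 45.7% of the IGF1 calls, again with none opposite. Under saline and both IGF1 times together 108 genes were called higher and 57 lower.

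Under E2 more genes separated the genotypes: 5388 at 2 h (9.2% higher, 8.67% lower) and 14168 at 24 h (27.7% higher, 19.3% lower). At 24 h of E2 the background floor was 6.21, 6.55 and 6.06 on the KO arrays, against 5.66, 5.83 and 5.76 on the WT arrays. Dim genes can thus appear higher in KO there, and the part of this in the 24 h counts was not tested. Of the saline calls, 321 of the higher and 131 of the lower were called in the same direction at 2 h, and 16 and 20 in the opposite direction. At 24 h the counts were 327 and 180 in the same direction and 34 and 33 in the opposite one. Across all 5 treatments 79 of the 486 genes called higher after saline were called higher each time. Of the 393 called lower, 32 were called lower each time. Of the 20 largest rises 11 were among them, and of the 20 largest falls 10. The largest rises and falls were picked on the saline arrays, and the saline comparison is among the 5. Part of these counts is thus built in, and whether they exceed that part was not tested.

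For 17 of those 40 genes, 9 rises and 8 falls, the 15 KO arrays and the 15 WT arrays did not overlap in any treatment. The rule that picked the genes required this between the saline arrays only, so that part of the count is built in. The share over all genes was not counted, so the count describes these genes alone. Slc13a5 ran from 8.92 to 11.88 on the 15 KO arrays and from 5.46 to 7.0005 on the 15 WT arrays, with differences of 4.38 and 4.16 at 2 h and 24 h of E2 and 4.23 and 4.24 at 2 h and 24 h of IGF1. Slc7a11 ran from 5.74 to 8.56 in KO and from 9.39 to 12.45 in WT, and Rxfp1 from 7.48 to 10.07 in KO and from 11.55 to 13.35 in WT. Efhd1 ran from 9.65 to 11.89 in KO and from 6.48 to 8.19 in WT. For these 4 genes the genotype was visible on every array of the series.

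**Figure D4:**
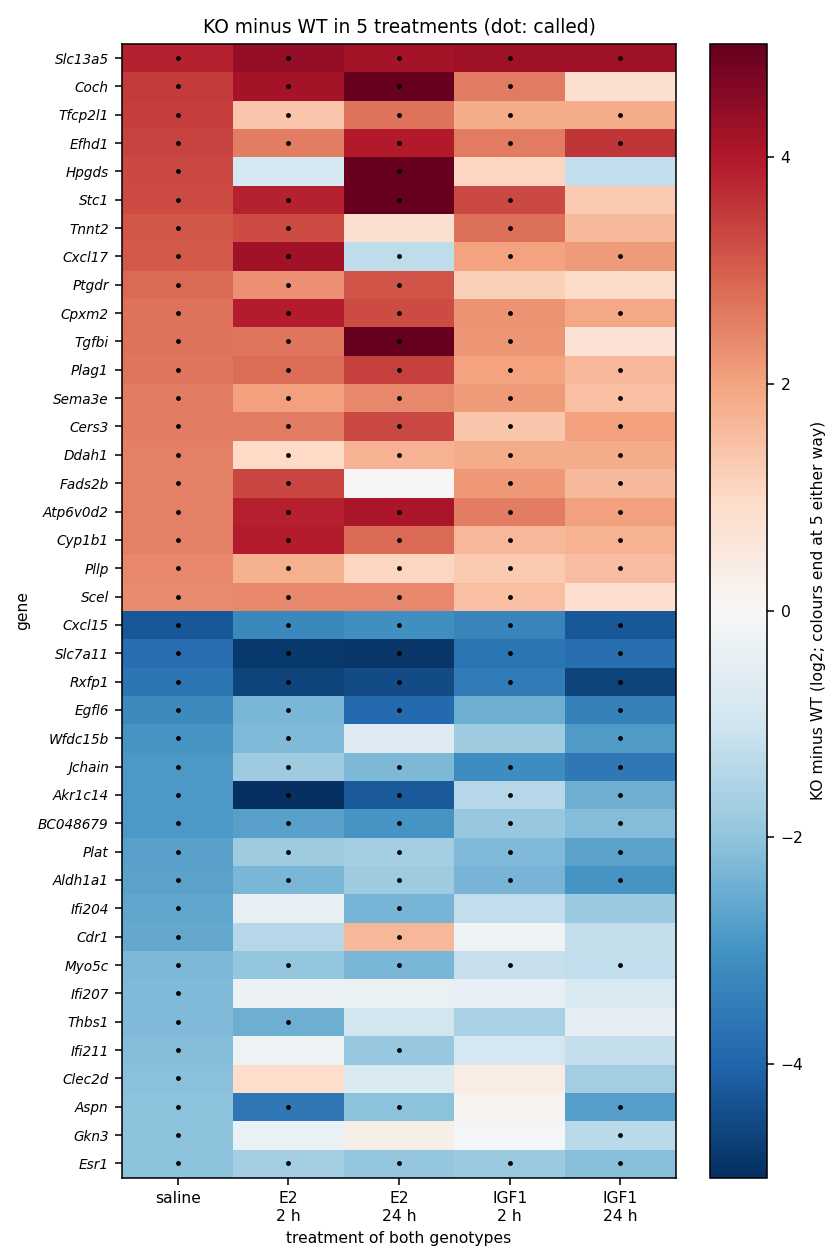
KO minus WT difference (colour, log2, red higher and blue lower in KO) of the 20 largest rises and the 20 largest falls (y axis) in the 5 treatments (x axis), with a dot where the difference was called. Slc13a5 and Efhd1 stay red and Slc7a11 and Rxfp1 stay blue in all 5, whereas Hpgds, Cxcl17 and Cdr1 are among those that change colour.

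Some differences depended on treatment. Hpgds was higher in KO by 3.30 after saline and by 5.21 at 24 h of E2, but differed by -0.89 at 2 h of E2, 1.09 at 2 h of IGF1 and -1.21 at 24 h of IGF1, where these last 3 were not called. Its mean level in KO was 12.78 after saline, 9.45 and 12.47 at 2 h and 24 h of E2, and 9.62 and 6.80 at 2 h and 24 h of IGF1. In WT it was 9.49, 10.34, 7.27, 8.54 and 8.01 in the same order. Hpgds was the gene with the larger of the 2 changes in genotype difference called between saline and IGF1 at 24 h (-4.51, adjusted p = 0.00394; 2 of 30142 genes called, 0.00664%, and 2019 at an unadjusted p under 0.05). The genotype difference moved by the same test in 4 genes at 2 h of IGF1 (0.0133%), and in 2412 (8.0%) and 6672 genes (22.1%) at 2 h and 24 h of E2. Cxcl17 was higher in KO by 3.07 after saline but differed by -1.29 at 24 h of E2, where it had risen in WT by 4.19 over saline.

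The response to E2 itself is given beside the saline levels, with which it shares arrays. Greb1 stood at 5.42 in KO and 11.28 in WT at 2 h of E2, and Igf1 at 9.42 in KO and 12.90 in WT. Pgr, whose groups overlapped after saline, was at 12.93 in KO and 16.44 in WT at 2 h of E2. In KO uteri limma called 78 genes higher (0.259%) and 32 lower (0.106%) at 2 h of E2 against saline, while in WT uteri it called 2965 higher (9.84%) and 2766 lower (9.18%). At 24 h of E2 it called none in KO uteri in either direction (0.0%, with 3735 at an unadjusted p under 0.05), against 5056 higher (16.8%) and 4009 lower (13.3%) in WT uteri. Saline uteri were taken at 24 h alone, so the 2 h contrasts also hold time after injection. This also applies to the changes in genotype difference between saline and 2 h of IGF1 or E2.

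**Figure D5:**
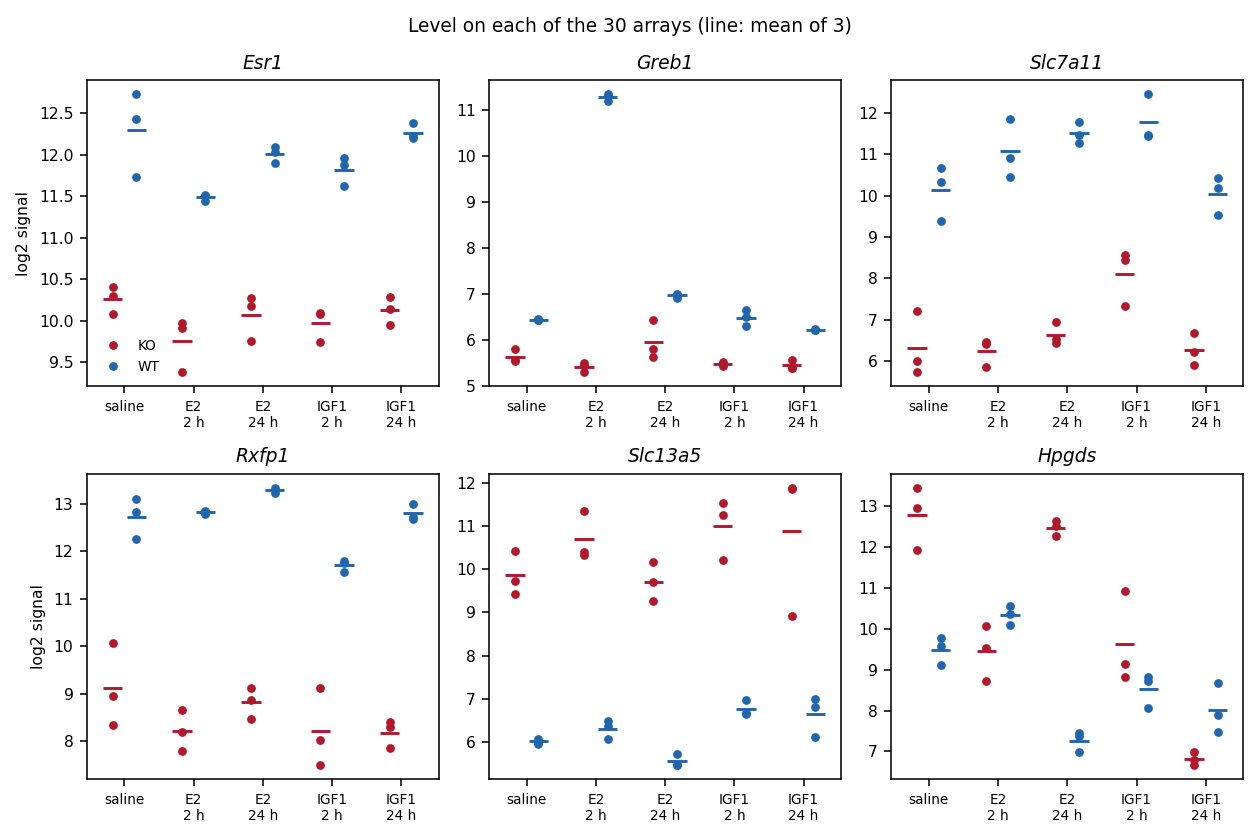
Log2 signal (y axis) of 6 genes on all 30 arrays, by treatment (x axis), with KO in red at the left and WT in blue at the right of each pair; lines are means of 3 arrays. Esr1, Slc7a11, Rxfp1 and Slc13a5 separate the genotypes in every treatment, Greb1 reaches 11.28 in WT at 2 h of E2, and Hpgds falls to 6.80 in KO at 24 h of IGF1.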

How the data were processed

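The authors deposited log2 values for 72688 probe sets on each of 30 Affymetrix arrays. Per the labels' protocols, Trizol and then RNeasy were used for RNA, of which 300 ng entered the WT Plus labelling. How the values were background-corrected and normalized, and with which software, is not given in the sources used here. The number of arrays limits precision. Probe sets with 1 symbol (30604) gave 30142 genes; of several per gene the brightest was used. Group means over all arrays were fitted with limma 3.58.1 in R 4.3.3 (lmFit, eBayes; 20 residual degrees of freedom, prior 3.66), with Benjamini-Hochberg adjustment within each comparison over all genes. On simulated data for the saline comparison (30142 genes, 50 changed per size), 20% of log2 changes of 0.5, 64% of 1, 92% of 2 and 100% of 3 were recovered, with 7 false calls. The simulated noise was independent and had the same SD for a gene on every array. It held no weak array and no shared deviation of replicates, so these rates may not hold for the real arrays.

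Named genes were the 20 largest rises and falls (adjusted p < 0.05, at least 2-fold, no overlap, brighter group above background; predicted genes, Rik clones, small RNAs, olfactory receptors and antibody segments left out), called list members and a few added genes. Members and the 26 gene and 21 marker lists were chosen with earlier results of these data known, so no list was tested as a set. Same-numbered replicates of KO and WT deviated together (correlations 0.433, 0.147 and 0.296), so replicate number was also fitted as a block.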

Additional observations from a re-analysis of the deposited data

Results flagged for a closer look

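The listed values are KO minus WT under a treatment less KO minus WT under saline, on the log2 scale, each called by an interaction test in limma (adjusted p < 0.05 over 30142 genes). Saline arrays were of 24 h alone, so the values at 2 h also hold time after injection. Under IGF1 at 2 h the difference moved for Creb3l1 (-1.99), Gna14 (-1.49), Slc7a15 (1.17) and Trim45 (1.47). Under IGF1 at 24 h it moved for Gm25346 (-1.92) and Hpgds (-4.51). Among the 40 genes with the largest saline differences, E2 at 2 h moved Tfcp2l1 (-2.07), Hpgds (-4.19), Cpxm2 (1.23), Ddah1 (-1.55), Akr1c14 (-2.71), Clec2d (2.96) and Gkn3 (1.73). E2 at 24 h moved Hpgds (1.91), Stc1 (2.60), Tnnt2 (-2.30), Cxcl17 (-4.36), Tgfbi (3.22), Fads2b (-2.44), Pllp (-1.34), Akr1c14 (-1.32), Cdr1 (4.23) and Gkn3 (2.37).

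Of 42053 probe sets with several symbols or none, 372 were called between KO and WT after saline (0.885%), 221 higher and 151 lower.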

How the results depend on the processing

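The 879 calls became 211 when the compared groups were fitted alone, 2444 with array weights and 288 with the replicate block in the compared groups alone, an alternative chosen after seeing the data. Leaving out 1 array gave 470 (without KO replicate 2) to 844, with 567 without WT replicate 3; other settings gave 795 to 1108. The 336 calls shared with IGF1 at 24 h became 973 with array weights and 223 (without KO replicate 2 or WT replicate 3) to 405 with 1 array left out. The 2 genes whose genotype difference changed under IGF1 at 24 h became 1 on centred or quantile-normalized arrays, with the replicate block, or without WT replicate 1 and KO E2 24 h replicate 2. They became 18 with array weights and 1 to 5 with 1 array left out. Without both WT replicate 1 and KO E2 24 h replicate 2, 986 were called and 444 shared. The replicate block gave 876 calls in the full fit and 337 shared. Centred arrays moved the higher share of calls to 59.5%, against 55.3%. Of 102 called genes named by the rule, 44 were called under every setting, and none turned its direction. For the moved counts the cause was not tested, other than fewer arrays where arrays were left out. Bounds for dim genes depend on the floor: that of Slc13a5 was at least 14.3-fold, 13.01-fold or 6.77-fold at the 90th, 95th or 99th percentile of olfactory receptor genes.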
